A study of Homo sapiens with 3 samples.

Results

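The genes described here are 47 genes of Fanconi, nucleotide excision, mismatch, base excision and single-strand break repair, and their mRNA was measured in T24 cells, a human bladder carcinoma line. They were chosen by symbol, without a limit on expression, though with earlier results of these data known. Of the 47 symbols, 47 matched 1 row each among the 58381 genes of the count table. Cells were left unexposed (Ctrl), exposed to γ-rays (RT), or exposed after stable transduction with an shRNA against HDAC6 (RT + shHDAC6, here KD), and each condition had 1 library. The treatment labels read Empty, RT and HDAC6 KD + RT. The dose on the labels is 10 Gy. The lentivirus and puromycin protocol, with a pLKO.1 control vector, is given for every library, whereas the study also describes the irradiated comparator as parental cells. Between KD and RT, an effect of transduction and selection therefore cannot be told apart from one of the hairpin. The time between exposure and RNA extraction is not given in the sources used here. The knockdown rests on 1 hairpin, and no unexposed knockdown library was analysed here, so an effect of the shRNA without radiation cannot be told apart from one that needs it.

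These pathways remove different lesions. Base excision repair starts with a DNA glycosylase that cuts out a damaged base, after which an endonuclease, a polymerase and a ligase restore the strand. Nucleotide excision repair opens the helix around a bulky lesion and cuts the strand on both sides of it, while mismatch repair corrects replication errors. The Fanconi pathway deals with interstrand crosslinks, for which a core complex monoubiquitinates the FANCI-FANCD2 pair and so brings in nucleases. Ionising radiation produces base damage and single-strand breaks in large numbers, which are mainly the substrates of base excision and single-strand break repair.

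With 1 library per condition no difference had a replicate check, and no p-value is given. Ratios are written RT/Ctrl, KD/RT and KD/Ctrl, the library named first being the numerator. Log2 ratios were taken after TMM scaling, which sets libraries on a common scale from the bulk of their genes, and their 95% intervals (exact Clopper-Pearson limits) cover counting error only. A gene was called higher or lower when it differed at least 1.5-fold and the larger of its counts was 10 or more. The libraries held between 35424086 and 41811165 counts, of which the 47 genes took 0.263% in Ctrl, 0.277% in RT and 0.286% in KD. Mitochondrially encoded RNA took 3.75%, 6.09% and 5.51% of the counts. With library totals in place of TMM, every log2 ratio shifted by -0.22 for RT/Ctrl, by -0.13 for KD/Ctrl and by 0.084 for KD/RT. HDAC6 gave 3098 (Ctrl), 2383 (RT) and 2170 (KD) counts, and its log2 ratio for KD/RT was -0.20 (interval -0.28 to -0.11). The targeted transcript thus lay at 87.2% of its RT level, a difference within the 1.5-fold limit. The study measured the knockdown by other assays, and reports lower HDAC6 mRNA by qPCR and lower HDAC6 protein by Western blot. It also reports that the rise of HDAC6 protein after irradiation was lost in knockdown cells. Protein was not measured in the libraries described here. The epithelial keratin KRT18 had 7336 to 9048 counts and KRT8 796 to 1508, whereas the urothelial plaque genes UPK2 and UPK3A had at most 3 counts in any library. The epithelial genes KRT19, CDH1, KRT5 and EPCAM had 441 to 950, 315 to 623, 257 to 478 and 116 to 205 counts. Among markers of other cells, the leukocyte gene PTPRC had 57 to 120 counts and HBB 11 to 33. The endothelial PECAM1 had 209 to 489 and VWF 209 to 417, ranges that overlap those of CDH1 and KRT5. The libraries come from cultures of a single cell line, and the source of these marker counts was not tested. The mesenchymal VIM had 74147 to 121716 counts, KRT7 had 3533, 3854 and 597 in Ctrl, RT and KD, and GATA3 had 2320, 1423 and 709.

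Promoter stretches are shown for the 4 members called higher for RT/Ctrl that carry an E2F or NRF1 motif. The sequence can so be read beside the values that follow. Of the other members called higher for RT/Ctrl, FAN1 and MUTYH had neither motif and FANCI had no promoter listed. The stretches come from RefSeq (GRCh38.p14), which listed a promoter for 43 of the 47 genes, and run 5′ to 3′ on the strand of the gene. Positions count from the RefSeq transcript start, whose first base is 0, with negative numbers before it, and the end given is the base after the stretch. Capitals mark matches to an E2F motif (TTTCCCGC, TTTGGCGC, TTTCGCGC or TTTGCCGC) or to the NRF1 motif, both searched on either strand and without overlap between the 2 motifs in these stretches.
FANCD2 (chr3:10026317-10026456, plus strand, from -120 to 20): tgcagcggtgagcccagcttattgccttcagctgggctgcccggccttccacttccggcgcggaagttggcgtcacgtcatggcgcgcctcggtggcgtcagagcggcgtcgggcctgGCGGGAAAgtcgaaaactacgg
FANCA (chr16:89816708-89816837, minus strand, from -190 to -60): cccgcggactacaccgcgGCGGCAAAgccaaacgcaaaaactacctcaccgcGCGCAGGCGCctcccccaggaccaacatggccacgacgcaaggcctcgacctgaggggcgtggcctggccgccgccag
ERCC2 (chr19:45370634-45370763, minus strand, from -190 to -60): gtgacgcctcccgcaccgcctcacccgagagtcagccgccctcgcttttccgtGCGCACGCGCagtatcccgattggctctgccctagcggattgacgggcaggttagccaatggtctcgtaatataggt
NEIL3 (chr4:177309724-177309853, plus strand, from -150 to -20): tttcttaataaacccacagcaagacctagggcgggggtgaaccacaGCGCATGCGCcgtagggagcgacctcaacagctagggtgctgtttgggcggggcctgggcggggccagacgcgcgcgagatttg

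Across the 300 bases of each promoter, the E2F motif was present in 6 of 43 members (14.0%) and in 4.49% of 15345 promoters of protein-coding genes. Its carriers were FANCA, FANCC, FANCD2, MSH3, MSH6 and PMS2. The NRF1 motif was present in 12 of 43 members (27.9%) and in 8.60% of all promoters, and the CCAAT motif (CCAAT on either strand) in 21 of 43 (48.8%) and in 36.6%. Of the 12 with the NRF1 motif, FANCA, ERCC2 and NEIL3 were called higher for RT/Ctrl, and XRCC1, LIG3, MPG, XPA, UBE2T, ERCC6, MLH3, PARP2 and TDP1 were not. MSH6 carries the E2F motif and was slightly lower in RT than in Ctrl. A match in these windows is a match of letters only.

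In irradiated cells without the hairpin, the repair genes lay mostly above their level in untreated cells. For RT/Ctrl, 36 of the 47 had a log2 ratio above 0, compared with 45.8% of the 20267 genes tested, and their median was 0.28 (range -0.50 to 0.88), compared with -0.062 over all genes tested. Among well-counted genes, with 500 counts or more in 1 library of the pair, the medians were 0.28 over 42 members and 0.092 over 9436 genes. The differences were small: 7 of the 47 were called higher and 0 were called lower, where 14.5% and 20.5% of all genes tested were called, so the share called higher was close to that of all genes. The counting interval lay above 0 for 33 members and below 0 for 6 (29.7% and 28.2% of all genes tested). Among genes with at least 500 counts it lay above 0 for 4690 and below 0 for 3143 of 9436 genes, and for 33 and 6 of 42 members. In that class 1636 genes were called higher and 578 lower, and 7 and 0 members. None of the 47 changed 2-fold. With library totals, 1 member was called higher (FAN1) and 2 lower (ERCC1 and CETN2), 18 of the 47 had a log2 ratio below 0 (with TMM 11; XPA, ERCC4, MSH3, UNG, NEIL2, MPG and LIG3 changed side) and the median was 0.059; over all genes the calls were then 1682 higher and 6352 lower, against 2938 and 4156 with TMM.

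**Figure D1:**
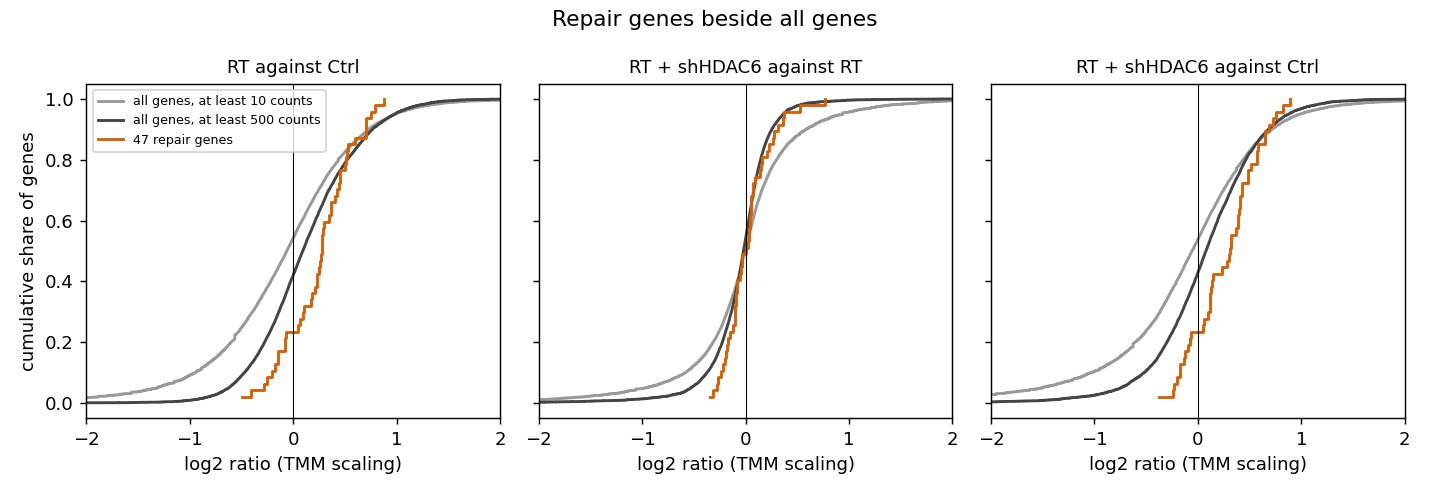
Cumulative share of genes (vertical axis) by log2 ratio after TMM scaling (horizontal axis, cropped at -2 and 2) for the 3 comparisons, with the 47 repair genes in orange, all genes with at least 10 counts in light grey and all genes with at least 500 counts in dark grey. In both comparisons with Ctrl the orange curve lies to the right of the others around the middle (medians 0.28 and 0.31), and for KD/RT it stays close to 0 (median 0.0083).

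The core of the Fanconi pathway comprised 9 members, the ligase subunits and adaptors of the core complex, the anchor FANCM and the E2 enzyme UBE2T. Gene positions below are on GRCh38. FANCA (chr16:89726683-89816977, minus strand), a scaffold subunit, gave 6919 (Ctrl), 8353 (RT) and 7024 (KD) counts. Its log2 ratio for RT/Ctrl was 0.71 (interval 0.66 to 0.75), and it was the member of this group called higher in RT. FANCA was highest in RT and in between in KD, where its ratio to RT was -0.31 (interval -0.36 to -0.27) and to Ctrl 0.39. Its exons overlap ZNF276 on the opposite strand over 19.6% of their length, and ZNF276 had log2 ratios of 0.65 and -0.31 in the same 2 comparisons. The strand setting of the counting is not given in the sources used here, so reads of the pair may not be fully separated.

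FANCG (chr9:35073835-35080004, minus strand) had 3546, 3751 and 4110 counts in the order Ctrl, RT, KD, which is kept from here on. It was 0.52 above Ctrl in RT on the log2 scale (interval 0.45 to 0.58) and 0.59 above it in KD (interval 0.52 to 0.65), where it just passed the 1.5-fold limit; it fell short of it with library totals (0.45), with upper quartile scaling (0.56) and with protein-coding genes only (0.58). FANCM (chr14:45135930-45200890, plus strand), a DNA translocase that recruits the core complex to chromatin, had 821, 829 and 1121 counts. It was highest in KD, with log2 ratios of 0.37 to RT (interval 0.24 to 0.50) and 0.82 to Ctrl (interval 0.69 to 0.95). UBE2T, which delivers ubiquitin to FANCD2 and FANCI, had 1260, 1279 and 1386 counts and log2 ratios of 0.46 for RT/Ctrl and 0.05 for KD/RT.

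The other core subunits spread on both sides of Ctrl. FANCL, the RING-type ubiquitin ligase subunit, gave 1486 (Ctrl), 925 (RT) and 1016 (KD) counts, an RT/Ctrl log2 ratio of -0.25 (interval -0.37 to -0.13). FANCF, an adaptor subunit, had 426, 279 and 253 counts, and its log2 ratio for KD/Ctrl (-0.38, interval -0.61 to -0.15) was the lowest of the 47 in that comparison. FANCB, FANCC and FANCE had log2 ratios of 0.35, 0.29 and 0.23 for RT/Ctrl and of 0.22, -0.23 and -0.10 for KD/RT.

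The monoubiquitinated pair and the effectors that act after it (FANCD2, FANCI, BRIP1 and FAN1) were above Ctrl in both irradiated libraries. FANCD2 (chr3:10026370-10101932, plus strand) gave 5715 (Ctrl), 6866 (RT) and 7279 (KD) counts, and its log2 ratios to Ctrl were 0.70 (interval 0.65 to 0.75) and 0.72 (interval 0.67 to 0.77). Its irradiated libraries differed by 0.02 (interval -0.03 to 0.07). FANCI (chr15:89243945-89317261, plus strand) had 7577, 8501 and 7875 counts and was 0.60 above Ctrl in RT (interval 0.56 to 0.65), a call that was lost with library totals (0.38) and upper quartile scaling (0.54), and 0.43 above Ctrl in KD. FAN1 (chr15:30890559-30943108, plus strand), a crosslink repair nuclease, had 1575, 2143 and 2057 counts. Its log2 ratio for RT/Ctrl, 0.88 (interval 0.78 to 0.97), was the highest of the 47, and its ratio for KD/Ctrl was 0.76 (interval 0.66 to 0.85). BRIP1, a helicase that binds BRCT domains, differed less, with 2937, 2669 and 2505 counts and a log2 ratio of 0.30 for RT/Ctrl.

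**Figure D2:**
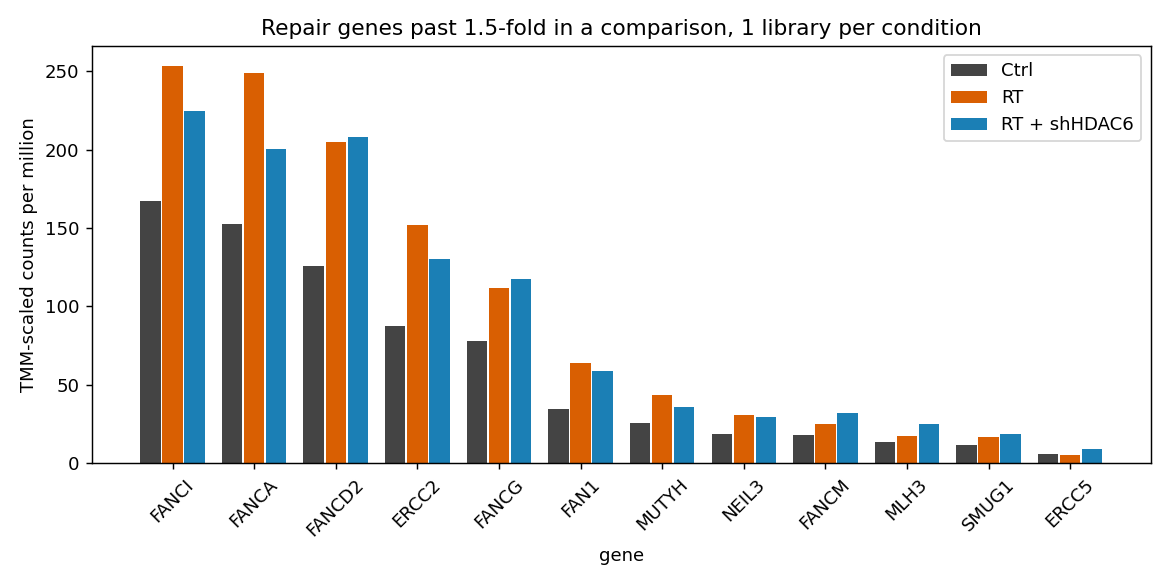
TMM-scaled CPM (vertical axis, from 0) of the 12 repair genes called in at least 1 of the 3 comparisons, with 1 bar per library (Ctrl dark grey, RT orange, KD blue) and no error bar, since there was 1 library per condition. FANCI, FANCA, ERCC2, FAN1, MUTYH and NEIL3 were highest in RT, and FANCD2, FANCG, FANCM, MLH3, SMUG1 and ERCC5 were highest in KD.

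Nucleotide excision repair was the group most divided between higher and lower levels, with 5 of 10 members above and 5 below Ctrl in RT and a median of -0.0065. ERCC2 (XPD, chr19:45349837-45370918, minus strand), a helicase of the transcription factor TFIIH, gave 3977 (Ctrl), 5099 (RT) and 4563 (KD) counts. Its log2 ratio was 0.79 (interval 0.73 to 0.85) for RT/Ctrl, the second highest of the 47, and 0.57 for KD/Ctrl. ERCC1 (chr19:45407334-45478828, minus strand), which forms the 5′ incision nuclease with ERCC4 (XPF), had 4757, 2494 and 3357 counts. It was highest in Ctrl and lowest in RT, with an RT/Ctrl log2 ratio of -0.50 (interval -0.57 to -0.43), the lowest of the 47, and of 0.37 (interval 0.29 to 0.44) for KD/RT. Its partner ERCC4 did not share this pattern, with 1449, 1119 and 1026 counts and log2 ratios of 0.06 (-0.05 to 0.18) and -0.19 (-0.31 to -0.06). ERCC1 exons overlap POLR1G on the opposite strand over 28.6% of their length, and POLR1G had a log2 ratio of 0.96 for RT/Ctrl, on the other side of 0 from ERCC1.

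The damage recognition factors CETN2 and RAD23B, which both bind XPC, lay below Ctrl in both irradiated libraries, short of a call. CETN2 gave 1109 (Ctrl), 619 (RT) and 745 (KD) counts, an RT/Ctrl log2 ratio of -0.41 (interval -0.55 to -0.26). RAD23B had 12839, 7813 and 8427 counts and a log2 ratio of -0.28 (interval -0.32 to -0.24). CETN2 passed the limit with library totals (-0.62). XPC itself had 3209, 2740 and 2866 counts and an RT/Ctrl log2 ratio of 0.21.

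ERCC5 (XPG, chr13:102845831-102875995, plus strand), the nuclease of the 3′ incision, was the single member called between the irradiated libraries. It gave 255 (Ctrl), 179 (RT) and 318 (KD) counts, and its log2 ratio for KD/RT was 0.77 (interval 0.50 to 1.04). The interval reaches below the 1.5-fold limit (0.585 on the log2 scale), so the call did not hold when the whole interval had to pass it. Of the ERCC5 exon length, 33.0% is shared on the same strand with the readthrough gene BIVM-ERCC5, which was listed with 0 counts in 3 of 3 libraries, so the ERCC5 level is uncertain. ERCC3, ERCC6, ERCC8 and XPA had log2 ratios of 0.28, 0.40, -0.21 and 0.09 for RT/Ctrl and of 0.04, -0.04, 0.27 and 0.03 for KD/RT.

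TFIIH was examined beyond its member helicases, since it also holds a kinase module. The kinase CDK7 had 1213, 590 and 619 counts and its assembly factor MNAT1 914, 426 and 645, and both were called lower for RT/Ctrl, with log2 ratios of -0.60 (-0.75 to -0.46) and -0.67 (-0.84 to -0.50). The cyclin CCNH was at 0.18, ERCC3 at 0.28 and ERCC2 at 0.79, and the core subunits tested had smaller ratios than ERCC2, with GTF2H1 at 0.07, GTF2H2 at 0.11, GTF2H3 at 0.20 and GTF2H5 at -0.09. MNAT1 was 0.54 higher in KD than in RT (interval 0.36 to 0.72), whereas CDK7 differed by 0.01 (interval -0.16 to 0.17).

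In mismatch repair, MSH6 and MSH3, the lesion-binding subunits, had RT/Ctrl log2 ratios of -0.07 and 0.10, and MLH3 stood out in KD. MLH3 (chr14:75013769-75051532, minus strand), a subunit of an endonuclease complex that also acts in meiosis, gave 604 (Ctrl), 577 (RT) and 865 (KD) counts. Its log2 ratios were 0.37 for RT/Ctrl, 0.52 (interval 0.37 to 0.68) for KD/RT and 0.89 (interval 0.74 to 1.04) for KD/Ctrl, the last being the highest of the 47 in that comparison. It passed the 1.5-fold limit between the irradiated libraries with library totals (0.61) but not with TMM. MSH6 had 8434, 5960 and 5512 counts and MSH3 had 2422, 1923 and 1664. Both were lowest in KD, with log2 ratios to RT of -0.17 (-0.23 to -0.12) and -0.27 (-0.37 to -0.18), and to Ctrl of -0.24 and -0.17. The MutL subunits PMS1 and PMS2 had log2 ratios of 0.50 and 0.27 for RT/Ctrl and of -0.10 and 0.03 for KD/RT.

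Of the 10 DNA glycosylases, 9 were above Ctrl in RT and 10 in KD, though UNG, NEIL2 and MPG in RT and NEIL1 and NEIL2 in KD changed side with library totals. MUTYH (chr1:45329163-45340893, minus strand), which removes adenine opposite oxidised guanine, gave 1168 (Ctrl), 1459 (RT) and 1261 (KD) counts. It was highest in RT, with a log2 ratio of 0.76 (interval 0.64 to 0.87) to Ctrl, and 0.27 lower on the log2 scale in KD (ratio -0.27, interval -0.38 to -0.16). A newer annotation than the one used for counting places another gene over 31.6% of the MUTYH exons on the same strand, so its level per length is uncertain. NEIL3 (chr4:177309874-177362936, plus strand), which acts on single-stranded DNA and on crosslinks in replicating cells, had 847, 1023 and 1027 counts and log2 ratios to Ctrl of 0.71 (interval 0.57 to 0.84) in RT and 0.65 (interval 0.52 to 0.78) in KD, both intervals reaching below the 1.5-fold limit. SMUG1 (chr12:54121277-54189008, minus strand), a uracil glycosylase, had 536, 563 and 648 counts and passed the limit in KD/Ctrl, at 0.65 (interval 0.48 to 0.81).

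UNG, the main uracil glycosylase, had 2504, 2084 and 2710 counts. It was highest in KD, 0.32 above RT (interval 0.23 to 0.40). OGG1 (oxidised guanine), TDG (mispaired thymine), NTHL1 and NEIL2 (oxidised pyrimidines) and MPG (alkylated purines) had log2 ratios of 0.25, 0.42, 0.28, 0.21 and 0.05 for RT/Ctrl and of 0.15, -0.10, -0.05, -0.09 and 0.09 for KD/RT. NEIL1 had 81, 54 and 68 counts, and its interval for RT/Ctrl ran from -0.67 to 0.36, so that a difference was not detectable at this depth.

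The enzymes that follow the glycosylases or repair single-strand breaks were above Ctrl in RT in 7 of 8 cases (LIG3 not with library totals), within a narrow range of -0.080 to 0.53, and 0 of 8 were called in any comparison. XRCC1, the scaffold of single-strand break repair, gave 1277 (Ctrl), 1145 (RT) and 944 (KD) counts, and its log2 ratio of -0.34 (interval -0.47 to -0.22) for KD/RT was the lowest of the 47. LIG3, the ligase bound to XRCC1, differed by -0.08 (interval -0.17 to 0.01) and POLB, the gap-filling polymerase, by 0.01 (interval -0.21 to 0.23). APEX1, the main abasic endonuclease, had 5804, 5031 and 5848 counts and lay 0.16 above RT in KD (interval 0.10 to 0.21). APEX2, PARP2, APTX and TDP1 had log2 ratios of 0.53, 0.36, 0.26 and 0.45 for RT/Ctrl and of -0.11, -0.08, 0.05 and -0.04 for KD/RT. MGMT, which reverses guanine alkylation directly, had 141, 94 and 102 counts, and its intervals spanned 0 in each comparison.

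HDAC6 knockdown in irradiated cells was accompanied by small differences in these genes. For KD/RT the median log2 ratio of the 47 was 0.0083 (range -0.34 to 0.77), and that of the 19013 genes tested was -0.0032. ERCC5 was called higher and 0 members were called lower, where 10.1% and 9.93% of all genes tested were called. Among genes with at least 500 counts, 134 of 8922 were called higher and 341 lower, and 0 of the 41 members in that class were called. Calls were thus rare among well-counted genes in general. Of the 47, 42 (89.4%) stayed within 0.32 of 0 on the log2 scale, compared with 61.7% of all genes tested; among genes with at least 500 counts the shares were 90.2% of 41 members and 80.8% of 8922 genes. The counting interval lay above 0 for 12 members and below 0 for 15 (19.6% and 24.4% of all genes tested). With at least 500 counts, it did so for 10 and 15 of 41 members and for 2498 and 3305 of 8922 genes. The 3 lowest ratios were those of XRCC1, FANCA and MUTYH and the 3 highest those of ERCC5, MLH3 and FANCM. Among the groups of more than 1 gene, medians ran from -0.14 for FANCI, FANCD2, BRIP1 and FAN1 to 0.054 for the Fanconi core. The median of base excision and single-strand break processing, -0.060, changed sign with library totals.

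**Figure D3:**
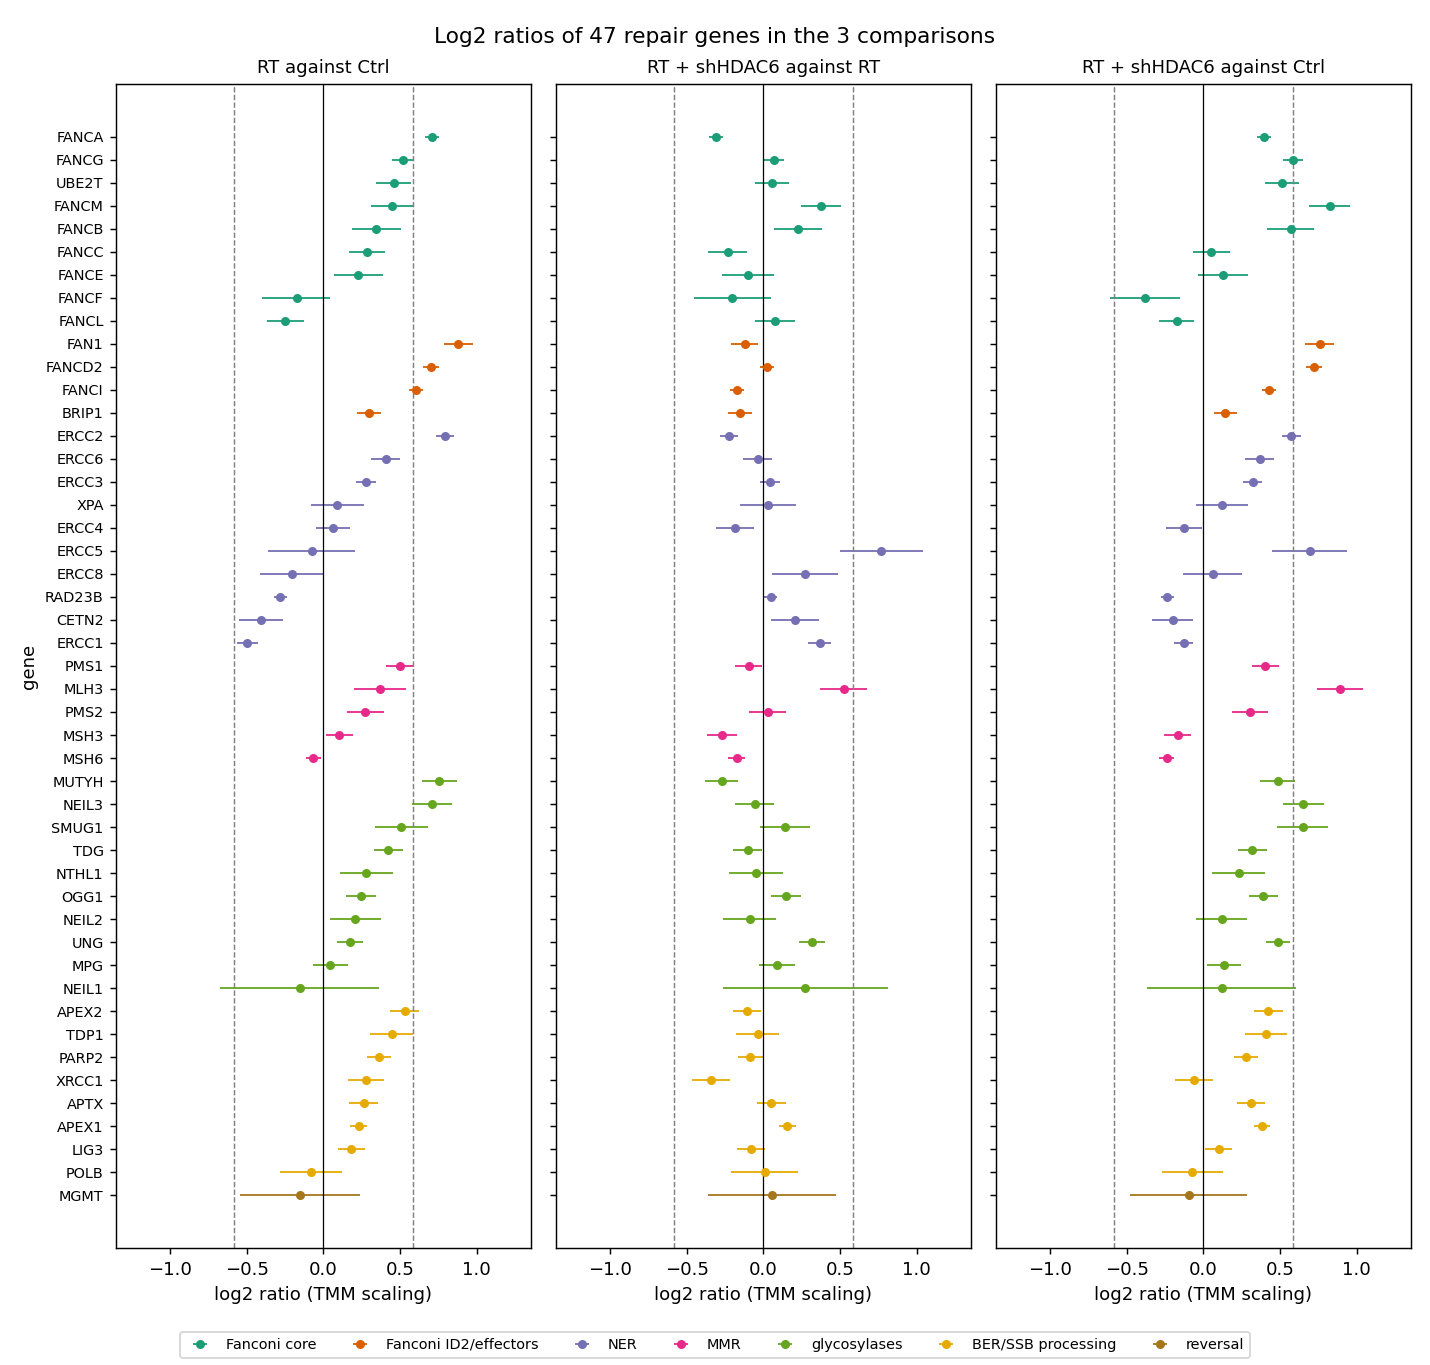
Log2 ratio after TMM scaling (horizontal axis) of each of the 47 repair genes (vertical axis, coloured by group) for RT/Ctrl, KD/RT and KD/Ctrl, with 95% counting intervals as horizontal bars and dashed lines at 1.5-fold. In the left panel 36 of 47 points lie above 0 and 7 lie past the dashed line, and in the middle panel ERCC5 alone lies past it.

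Irradiated knockdown cells were also compared with untreated cells. This comparison shares the single Ctrl library with RT/Ctrl, so that their values are not independent. For KD/Ctrl, 36 of 47 had a log2 ratio above 0 (46.2% of the 20374 genes tested) and the median was 0.31 (range -0.38 to 0.89), compared with -0.056 over all genes tested. The members called higher were FANCD2, FANCG, FANCM, FAN1, ERCC5, MLH3, NEIL3 and SMUG1, 8 of 47, and 0 were called lower, where 13.9% and 20.5% of all genes were called. With library totals FANCC, FANCE, ERCC8, XPA, NEIL1, NEIL2 and LIG3 changed to ratios below 0; FANCD2, FANCM, FAN1 and MLH3, 4 of the 47, were past the limit, and the median was 0.18. The counting interval lay above 0 for 30 members and below 0 for 8 (29.7% and 28.7% of all genes tested). With at least 500 counts, it did so for 29 and 7 of 42 members and for 4592 and 3296 of 9467 genes. In that class 7 members were called higher and 0 lower, and 1308 and 784 genes. FANCD2, FAN1 and NEIL3 were called in both comparisons with Ctrl, of which FAN1 was past the limit in both with library totals (FANCD2 was at 0.48 for RT/Ctrl, NEIL3 at 0.49 and 0.52).

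Levels differed far more between repair genes than between libraries. Levels were compared per length of merged exons, in TPM, which sets each library to the same sum and is not TMM-scaled. APEX1 was highest, at 332, 311 and 371 TPM in Ctrl, RT and KD, followed by RAD23B at 300.1, 197 and 219 TPM. NEIL1 (1.26, 0.907 and 1.17 TPM), ERCC8, MGMT and ERCC5 were lowest. These first 2 and last 4 were also at the ends when the length of the canonical transcript was used, but the order in between moved: FANCL, with much exon sequence outside its canonical transcript, went from rank 43 to 18 and MSH6 from 19 to 4. The median over the 47 was 22.4 TPM in Ctrl, 25.2 in RT and 26.0 in KD. These medians fell on different genes (OGG1, NTHL1 and MUTYH), so they do not show a rise gene by gene. From Ctrl to RT, OGG1 went from 22.4 to 21.3 TPM, NTHL1 from 26.0 to 25.2 and MUTYH from 21.7 to 29.3.

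**Figure D4:**
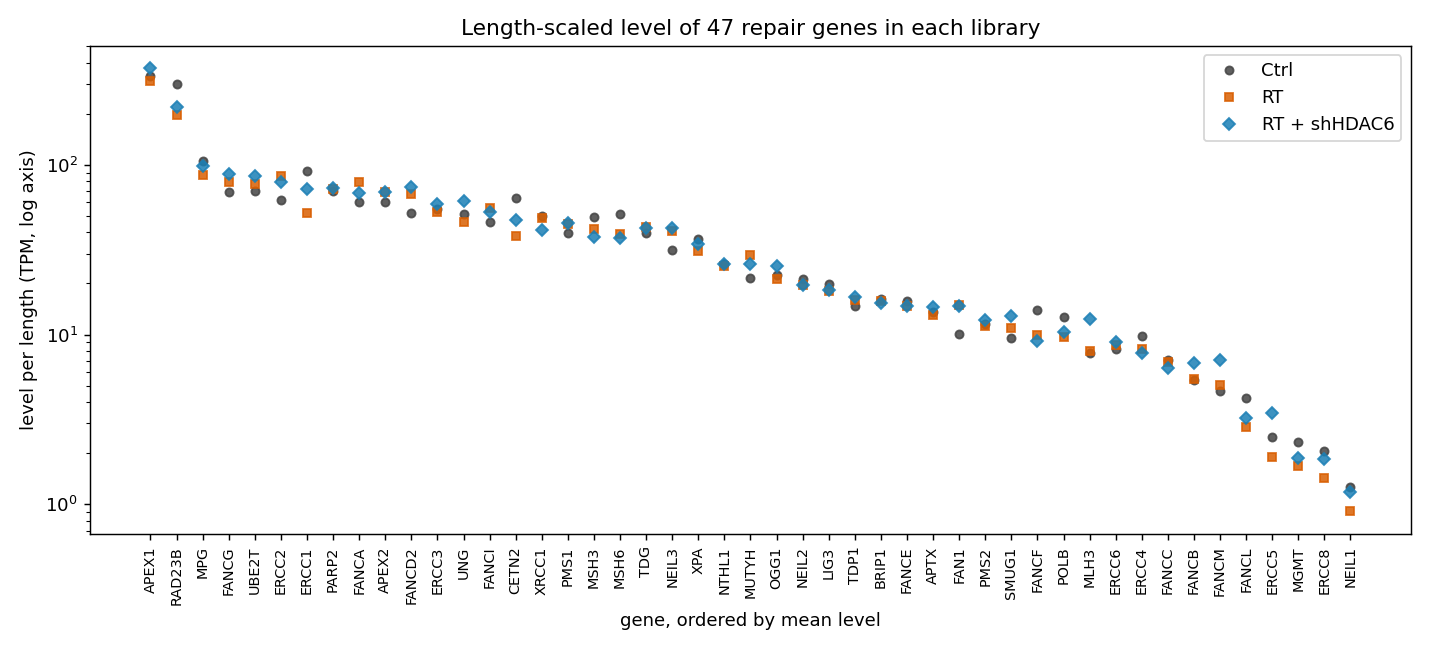
Level per merged exon length in TPM (vertical log axis) of the 47 repair genes, ordered by mean level (horizontal axis), with Ctrl as dark circles, RT as orange squares and KD as blue diamonds. APEX1 and RAD23B lie above 190 TPM in each library and NEIL1 near 1, while the 3 libraries of most genes lie close together.

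Other genes of the same pathways were read from a list of 56 partners, of which 53 had at least 10 counts. Their median log2 ratio was 0.25 for RT/Ctrl, close to the 0.28 of the members. Of the 53, 6 were called higher and 3 lower, where 14.5% and 20.5% of all genes tested were called, so neither share was above that of all genes. The higher ones were FEN1 (flap endonuclease, 0.65), EXO1 (exonuclease of mismatch repair, 0.69), the catalytic polymerase subunits POLD1 (0.73) and POLE (0.62), EME1 (crosslink nuclease subunit, 0.68) and the Fanconi-associated FAAP100 (0.67). The lower ones were CDK7, MNAT1 and APLF (single-strand break factor, 121, 50 and 44 counts, log2 ratio -0.84). For KD/RT the partner median was -0.0079, and 0 of 53 were called in either direction (10.1% and 9.93% of all genes tested). Among all genes with at least 500 counts, 134 of 8922 were called higher and 341 lower for KD/RT. For KD/Ctrl the partner median was 0.18, with 7 called higher and 2 lower (13.9% and 20.5% of all genes tested). Genes of DNA replication and mitosis, 22 in number, had a median of 0.35 for RT/Ctrl, with 6 called higher and 0 lower (14.5% and 20.5% of all genes tested), and a median of -0.026 for KD/RT. RRM2 (0.91) and CDK1 (0.68) were among those called. Of the 22, 18 had intervals above 0 for RT/Ctrl and 4 below 0, which were CCNB1 (-0.53), PLK1 (-0.28), MCM6 (-0.25) and AURKA (-0.18). In bulk RNA a change in the share of cells in S phase and a change of mRNA per cell cannot be told apart, and the part of the replication genes in the repair gene values was not tested.

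Exons of 7 of the 47 were covered over more than 20% by a gene on the opposite strand, and 16 had no exon overlap of any length on either strand. Both sources name a strand-specific kit for the libraries, but without the strand setting of the counting such pairs are uncertain. Besides ERCC1 they were MSH6 (24.2%, FBXO11 at -0.38 for RT/Ctrl), OGG1 (29.0%, TADA3 at -0.67), NEIL1 (30.5%, MAN2C1 at 0.53), LIG3 (30.5%, RFFL at -0.80), MPG (30.1%, NPRL3 at 0.18) and XRCC1 (20.04%). OGG1 and LIG3 thus lay on the other side of 0 from the larger gene opposite, at 0.25 and 0.18.

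Several of these genes share a start region with a neighbour on the other strand. A protein-coding gene on the opposite strand started within 1000 bases of 10 of the 47 (21.3%), compared with 10.0% of 20046 protein-coding genes. MUTYH and TOE1, whose starts lie 200 bases apart, were both called higher in RT, at 0.76 and 1.2, and PMS1 and ORMDL1 lay at 0.50 and 0.78. The log2 ratios here are RT/Ctrl where no other comparison is named. MUTYH exons have an opposite-strand overlap, which includes TOE1, over 8.45% of their length, so reads of the pair may not be fully separated. For KD/RT, MUTYH lay at -0.27 and TOE1 at 0.05. XRCC1 and PINLYP, 274 bases apart, lay at 0.28 and -0.24, and for KD/RT at -0.34 and 1.06 (interval 0.72 to 1.41, PINLYP having 163, 102 and 222 counts). Other pairs also diverged: FANCB was at 0.35 and MOSPD2 at -0.74, and CETN2 at -0.41 and NSDHL at 0.46. NTHL1 and TSC2 lay at 0.28 and 0.24.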

How the data were processed

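RNA-seq libraries of T24 cells in 3 conditions, 1 each, were grouped by their treatment labels. The authors used cutadapt for trimming, STAR for alignment to GRCh38 (version 2.6.1a per the labels, whereas the methods of the study name another) and featureCounts with GENCODE release 28. Values deposited by the authors are raw whole-number counts per gene; strand setting and handling of ambiguous reads are not given in the sources used here. The library kit is named differently in labels and methods. Symbols, positions and exon lengths came from GENCODE release 44 (57754 of 58381 identifiers matched). Scaling factors were computed in R 4.3.3 with edgeR 4.0.16 (TMM, upper quartile) and DESeq2 1.42.0, and ratios and intervals in Python 3.11.15 with scipy 1.17.1. A count of 0 was set to 0.5. The NOISeq step of the study was not used; a 1.5-fold rule with at least 10 counts took its place, and no test was possible with 1 library per condition. Depth gives a floor of 3 counts, 0.0662 to 0.0894 CPM after TMM. With 1 library per condition, intervals cover counting error only. Reads lack molecular identifiers, so copies of a molecule cannot be told from separate molecules, and the intervals may be too narrow. Scripts were tested on simulated data. Values are given in full for members called in a comparison and for the 3 highest and lowest ratios of each. Members, lists, rules and alternatives were chosen with earlier results of these data known, and the promoter motifs and the neighbour distance after the data had been seen.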

Additional observations from a re-analysis of the deposited data

How the results depend on the processing

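No paired analysis was possible because each condition had 1 library, which also barred leaving out replicates. With library totals, genes past 1.5-fold for RT/Ctrl numbered 1682 higher and 6352 lower, members 1 higher and 2 lower; members higher numbered 2 for KD/RT and 4 for KD/Ctrl, the member medians were 0.059 (RT/Ctrl) and 0.18 (KD/Ctrl), and the HDAC6 log2 ratios were -0.16 and -0.27. With no filter on low counts, genes higher and lower numbered 6334 and 7799 for RT/Ctrl, 6957 and 6646 for KD/RT, and 6485 and 10609 for KD/Ctrl. With at least 100 counts they were 1279 lower for RT/Ctrl, 362 and 638 for KD/RT, and 1714 and 1490 for KD/Ctrl. At 2-fold they were 975 and 1858, 828 and 909, and 1001 and 2134 in that order of comparisons, and 0 members were higher in each. At a lower limit (0.32 on the log2 scale) they were 5171 and 6875, 3576 and 3713, and 5284 and 6654, with 19 and 2, 4 and 1, and 21 and 1 members. When the whole interval had to pass 1.5-fold, they were 1511 and 791, 274 and 591, and 1330 and 1309, with 0 members higher for KD/RT and 4 for KD/Ctrl. Among protein-coding genes they were 2396 lower for RT/Ctrl, 1107 and 990 for KD/RT, and 1831 and 2212 for KD/Ctrl. Fewer genes tested, a changed fold or a shifted scale make these counts differ by construction. The member medians for RT/Ctrl and KD/Ctrl stayed above 0 under the 4 scalings run. Upper quartile scaling took FANCI (0.54, RT/Ctrl) and FANCG (0.56, KD/Ctrl) below 1.5-fold, and DESeq2 size factors took APEX2 (0.59) for RT/Ctrl and FANCB (0.62) and ERCC2 (0.62) for KD/Ctrl above it. Depth limited NEIL1 and MGMT, whose intervals spanned 0 in each comparison.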

Other observations

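Targets of p53, the transcription factor of the DNA damage response, are given here by a list of 10, of which 3 lay above Ctrl in RT, compared with 45.8% of all genes tested. The list had a median log2 ratio of -0.26 for RT/Ctrl, 0.098 for KD/RT and -0.093 for KD/Ctrl, with 0 called higher and 2 lower for RT/Ctrl, near the 20.5% of all genes tested that were called lower. The lower ones were GDF15 (679, 178 and 234 counts in Ctrl, RT and KD, log2 ratio -1.50, interval -1.74 to -1.26), a secreted stress cytokine, and BBC3 (235, 59 and 100 counts, -1.56), which encodes the pro-apoptotic protein PUMA. BBC3 was called higher for KD/RT, at 0.70 (interval 0.22 to 1.19), 1 of 10 where 10.1% of all genes tested were called. CDKN1A, the cyclin-dependent kinase inhibitor p21, had 2793, 1441 and 2093 counts, with log2 ratios of -0.52 for RT/Ctrl and 0.48 for KD/RT, short of the 1.5-fold limit with TMM. MDM2, the ligase that degrades p53, lay at -0.23 for RT/Ctrl and TP53I3 at 0.33.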
